A study of Mus musculus with 15 samples.

Results

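The genes described here are 5 genes of the plasminogen system: Plau and Plat, which code for the urokinase-type and tissue-type plasminogen activators, Plaur, the receptor of the urokinase-type activator, and the serpin genes Serpine2 and Serpinf2. They were taken by symbol from the 24493 genes of an RNA sequencing table of sorted mouse liver cells, and 5 of 5 were found and passed the filter on low values, as did 13905 genes in all. The group was chosen by measured values, namely the different injury responses of Serpine2 and Plau in hepatocytes and biliary cells, so the injury responses of these 5 genes and the difference between the responses are given as descriptions with no test. The 15 libraries came from 5 groups of 3, namely hepatocytes and biliary epithelial cells sorted without treatment, and hepatocytes, reprogrammed cells and biliary epithelial cells sorted after a diet with DDC, a compound toxic to the liver that causes cholestatic injury. Every mouse, untreated mice included, had received AAV-TBG-Cre at 4 weeks of age. This virus carries Cre under a hepatocyte promoter and served to label cells. DDC chow began at 5 weeks of age and lasted 4 weeks. The series title calls the reprogrammed cells reprogrammed hepatocytes. The labels give neither strain, reporter allele, sex nor sorting markers, and do not say that replicates are separate animals, so p-values here reflect the spread among the sequenced samples alone, and that spread may be technical.

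Plasminogen circulates as an inactive precursor made mainly by hepatocytes. The activators cut it into plasmin, a protease that dissolves fibrin and degrades other matrix proteins, and the urokinase receptor holds the urokinase-type activator at the cell surface. Serpins act on this cascade as suicide inhibitors: protease nexin 1, the product of Serpine2, blocks urokinase, tissue activator, thrombin and plasmin close to the cell surface, whereas alpha2-antiplasmin, the product of Serpinf2, is a plasma protein that blocks plasmin itself.

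Levels are scaled TPM, a length-corrected share of a library's transcripts divided by 1 scale factor per library. Log2 differences were taken after adding 1 to the scaled TPM, which understates changes of low genes. Calls required an adjusted p from limma below 0.05 together with a log2 difference of 1 or more in either direction. Without scaling, the median log2 difference of the genes tested moved to 1.1 for biliary cells against hepatocytes averaged over the treatments, to 0.71 for reprogrammed cells against DDC hepatocytes and to -0.34 for reprogrammed against DDC biliary cells, and higher or lower therefore means relative to the scaled median gene. The sorted types were checked against their markers. Over 6 hepatocyte markers the summed level was 129900 to 149100 in untreated and 71040 to 144900 in DDC hepatocytes, and over 6 biliary markers it was 10520 to 12150 in untreated and 7946 to 12830 in DDC biliary cells. Reprogrammed libraries held both, with 4493 to 10660 for the biliary and 22110 to 72530 for the hepatocyte markers. Biliary libraries also held hepatocyte transcripts, at 26870 to 34520 untreated and 12570 to 28870 under DDC. In hepatocyte libraries the sum of biliary markers was 35.0 to 69.4 untreated and 351 to 666 under DDC. Spp1 was its largest part in DDC hepatocytes (mean 419) and in biliary cells (9856 untreated, 8630 under DDC). The DDC hepatocyte means of Krt19, Krt7 and Epcam were 1.5, 0.43 and 1.9, and those of Sox9 and Cdh1 were 9.69 and 91.7. The part of biliary transcripts in the Plat and Plaur levels of DDC hepatocytes was not tested. Read depth is unknown because TPM values do not hold it, and in these bulk libraries fewer cells of a type and less RNA per cell cannot be told apart.

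Serpine2 lies on chromosome 1 (79794197 to 79861180, GRCm38, minus strand), Plaur on chromosome 7 (24462484 to 24475968, plus strand), Plat on chromosome 8 (22757727 to 22782844, plus strand), Serpinf2 on chromosome 11 (75431732 to 75439591, minus strand) and Plau on chromosome 14 (20836660 to 20843385, plus strand). All 5 are protein-coding genes on different chromosomes. RefSeq promoter sequences of GRCm38.p6 were matched for 3 of them, which cover the patterns described below: a gene high in injured biliary cells (Plaur), the gene with opposite responses (Serpine2) and a hepatocyte gene (Serpinf2). The windows are the 250 bases before the RefSeq start, which for Serpine2 and Serpinf2 lies inside the GENCODE span given above, so part or all of these 2 windows is within that span. They are shown 5′ to 3′ on the gene's strand, with matches to the AP-1 motif TGANTCA, the GC box GGGCGG and the FOXA motif TNTTTAC on either strand in capitals. Overlapping matches form 1 capital run.
Plaur (chr7:24462233-24462482, plus strand): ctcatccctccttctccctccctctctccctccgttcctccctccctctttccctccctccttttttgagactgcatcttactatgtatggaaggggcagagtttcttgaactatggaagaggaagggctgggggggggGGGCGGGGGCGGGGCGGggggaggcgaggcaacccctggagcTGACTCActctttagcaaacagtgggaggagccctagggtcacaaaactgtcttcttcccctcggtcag
Serpine2 (chr1:79858666-79858915, minus strand): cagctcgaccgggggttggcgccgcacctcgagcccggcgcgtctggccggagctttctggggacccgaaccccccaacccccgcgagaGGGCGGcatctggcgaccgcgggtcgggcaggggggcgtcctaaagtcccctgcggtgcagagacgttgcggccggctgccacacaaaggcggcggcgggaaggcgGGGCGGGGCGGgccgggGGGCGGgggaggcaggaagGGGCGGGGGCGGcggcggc
Serpinf2 (chr11:75439502-75439751, minus strand): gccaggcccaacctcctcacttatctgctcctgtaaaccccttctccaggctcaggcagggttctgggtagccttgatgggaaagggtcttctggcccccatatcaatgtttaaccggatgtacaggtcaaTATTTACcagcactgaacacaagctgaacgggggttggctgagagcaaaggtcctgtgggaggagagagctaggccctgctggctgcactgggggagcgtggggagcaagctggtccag
The Plaur window held 1 AP-1 match, whose first base was 69 bases before the start, and 3 GC boxes. The Serpine2 window was 78.8% G and C, against a median of 52.4% over all promoters, and held 6 GC boxes and 0 matches to AP-1 or FOXA. The Serpinf2 window held 1 FOXA match and 0 GC boxes. Over all 32851 promoter windows of this length, AP-1 was matched in 6.75%, the GC box in 32.7% and FOXA in 10.9%. The TEAD motif GGAATG, matched in 12.6% of all windows, was matched in 0 of the 3. A match is a description of the letters and not evidence of binding.

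Plau was near 0 in both untreated cell types and in DDC hepatocytes, and high in reprogrammed and DDC biliary cells. Its levels were 0, 0.0765 and 0.154 in the 3 libraries of untreated hepatocytes and 0.243, 0.215 and 0.301 in untreated biliary cells. DDC hepatocytes stood at 0, 0.227 and 0.756. Reprogrammed cells stood at 12.9, 28.3 and 25.0, and DDC biliary cells at 24.7, 61.1 and 55.1. Each reprogrammed or DDC biliary library was thus above every library of the other groups. These 2 groups overlapped because DDC biliary library 1 lay below reprogrammed libraries 2 and 3. Library 1 was the lowest of both groups. The change under DDC was 5.16 ± 0.338 (log2 difference ± SE) in biliary cells and 0.26 ± 0.338 in hepatocytes.

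Plat followed a similar order with a small level in injured hepatocytes. It was listed at 0 in each of the 3 untreated hepatocyte libraries and at 0.169, 0.479 and 0.819 in untreated biliary cells. In DDC hepatocytes it was 4.93, 0.707 and 2.79. The reprogrammed libraries reached 26.6, 24.4 and 40.6 and the DDC biliary libraries 27.0, 41.6 and 59.6, ranges that overlapped each other and no other group. Under DDC the difference was 4.83 ± 0.393 (log2 ± SE) in biliary cells and 1.75 ± 0.393 in hepatocytes. In the third library of both groups, where Plat was highest, the summed level of 9 stellate cell and fibroblast markers was also highest, at 88.7 in DDC biliary and 66.3 in reprogrammed cells against 16.2 to 23.7 in the other libraries of these groups, and its part in the level of Plat was not tested.

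Plaur, the receptor gene, differed from both activators in that uninjured biliary cells already expressed it. Untreated biliary libraries held 3.78, 3.86 and 14.96, with the third well above the others, and untreated hepatocyte libraries 0.0797, 0 and 0.512. The third biliary library also had the highest sum of immediate early genes, 5930 against 3288 and 3558, whose part in this level was not tested. Plaur was 4.35, 1.13 and 3.28 in DDC hepatocytes. Reprogrammed cells had 21.9, 22.4 and 34.3 and DDC biliary cells 26.9, 43.4 and 49.7. As for Plat, the third library was the highest of both groups and had their highest sum of stellate cell and fibroblast markers, whose part was not tested. The DDC biliary and reprogrammed ranges overlapped, as did those of untreated biliary cells and DDC hepatocytes, and untreated hepatocytes lay below all other groups. The DDC difference was 2.47 ± 0.456 (log2 ± SE) in biliary cells and 1.63 ± 0.456 in hepatocytes. With a pseudocount of 0.1 in place of 1, the hepatocyte difference grew to 3.57 and the difference between the responses, 0.83 ± 0.645, turned to -0.91, so which cell type responded more was not settled for Plaur.

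Serpine2, the gene of protease nexin 1, moved in opposite directions in the 2 cell types. Hepatocytes held 13.7, 19.2 and 7.95 untreated and 0.261, 0.526 and 1.45 under DDC, an 18.2-fold lower mean with no overlap. Biliary cells held 4.32, 5.73 and 2.97 untreated and 40.0, 44.7 and 45.8 under DDC, a 10-fold higher mean with no overlap either. Reprogrammed cells held 31.2, 22.9 and 26.3, below every DDC biliary library and above every untreated one. The 5 groups did not overlap at any step of the order from DDC biliary through reprogrammed, untreated hepatocyte and untreated biliary to DDC hepatocyte libraries. In TPM as deposited, however, untreated hepatocytes (7.62, 11.7 and 4.66) and untreated biliary cells (5.76, 8.46 and 4.26) did overlap. The DDC difference was -3.04 ± 0.301 (log2 ± SE) in hepatocytes and 3.09 ± 0.301 in biliary cells, and the response of biliary cells minus that of hepatocytes was 6.13 ± 0.425, compared with 4.89 ± 0.477 for Plau and 3.08 ± 0.555 for Plat.

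Serpinf2, the antiplasmin gene, was a hepatocyte transcript with little response to DDC. It stood at 989, 834 and 1010 in untreated and 755.5, 1027 and 1179 in DDC hepatocytes, ranges that overlapped. Biliary cells had 206, 141 and 156 untreated and 122, 212 and 99.1 under DDC, which also overlapped. Reprogrammed cells lay between the cell types, at 237, 566 and 404. The DDC difference was 0.04 ± 0.322 (log2 ± SE) in hepatocytes and -0.27 ± 0.322 in biliary cells. Library 2 was the highest reprogrammed and the highest DDC biliary library for Serpinf2. These were also the libraries with the most albumin mRNA (Alb), at 56020 and 22490 against 15170 to 29960 and 9606 to 9939 in the others, and the part of other hepatocyte transcripts in the level of Serpinf2 was not tested.

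**Figure D1:**
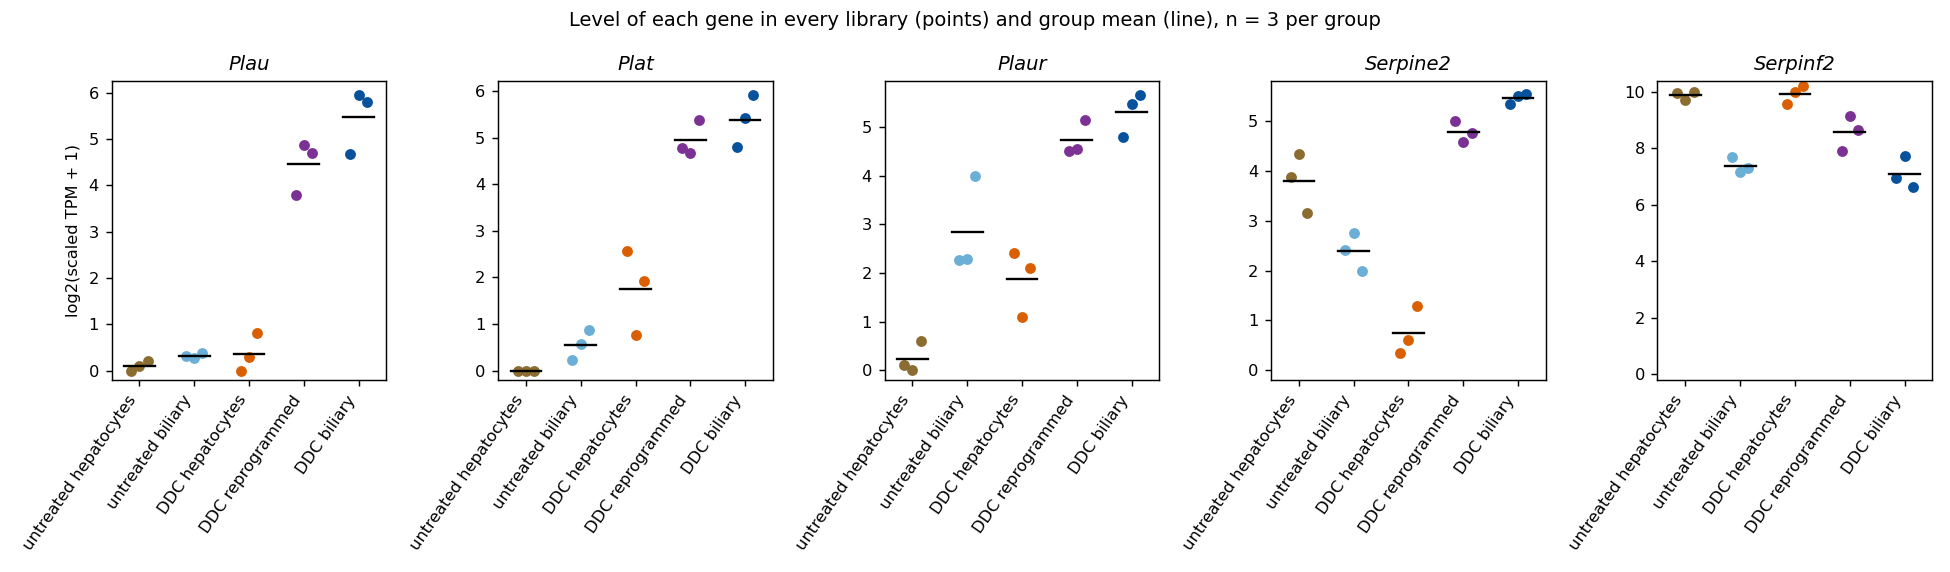
Level of each of the 5 genes in 15 libraries, as log2(scaled TPM + 1) on the vertical axis of each panel, with 1 point per library and a line at the mean of the 3 libraries of a group. Plau, Plat and Plaur are highest in reprogrammed and DDC biliary cells, Serpine2 is lowest in DDC hepatocytes, and Serpinf2 is highest in both hepatocyte groups.

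**Figure D2:**
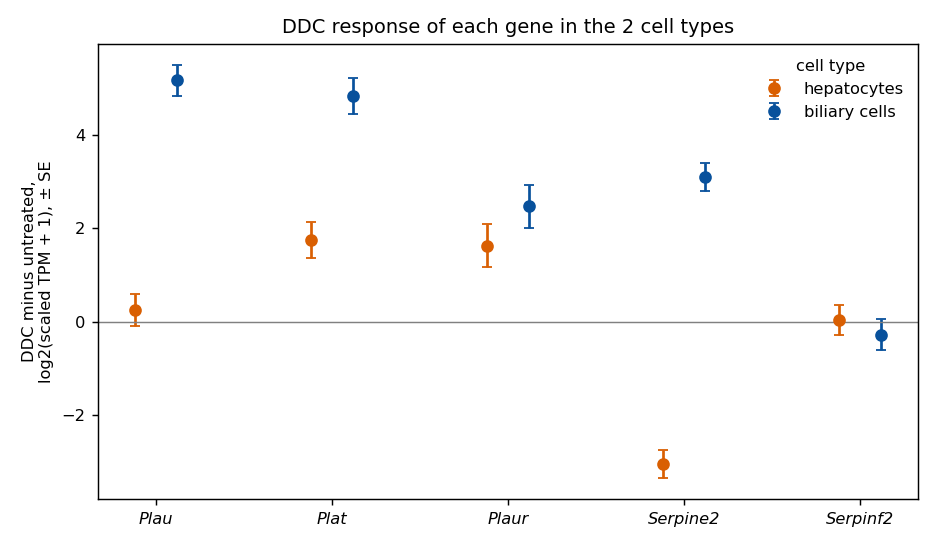
DDC minus untreated difference of each gene in hepatocytes (orange) and biliary cells (blue), as the difference of mean log2(scaled TPM + 1) with its standard error (vertical axis), n = 3 libraries per group. Serpine2 stands at -3.04 in hepatocytes and 3.09 in biliary cells, and Serpinf2 is near 0 in both.

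Biliary cells were then compared with hepatocytes averaged over both treatments. For Plau and Serpine2 this average is a description with no test, since it holds the same DDC levels that chose the group. Of all genes tested, 36% were called in this comparison, 21.2% higher and 14.7% lower, so a call alone says little about these genes. Plaur was higher in biliary cells by 3.03 ± 0.323 (log2 ± SE, limma adjusted p = 1.87e-06) and Plat by 2.09 ± 0.278 (adjusted p = 1.49e-05). Serpinf2 was lower, at -2.66 ± 0.228 (adjusted p = 2.4e-07). Plau stood at 2.67 ± 0.239, nearly all of it from the DDC libraries (5.11, against 0.22 untreated). The 1.66 ± 0.213 of Serpine2 averaged a lower level in untreated (-1.41) and a higher level in DDC biliary cells (4.73). The calls of Plaur, Plat and Serpinf2 held under each of the 21 alternatives run for this comparison.

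Reprogrammed cells were compared with the midpoint, on the log2 scale, of DDC hepatocytes and DDC biliary cells. The reprogrammed values did not choose the genes, but the midpoint holds the DDC levels of Plau and Serpine2 that did. For these 2 genes this comparison is therefore a description with no test. Here 3.09% of all genes were called, 3.06% higher and 0.036% lower. The log2 midpoint of a low and a high level lies below their mean, so an intermediate or mixed population can stand above it. For Plau the group means were 0.328 in DDC hepatocytes, 22.0 in reprogrammed and 47.0 in DDC biliary cells. Whether the reprogrammed libraries were mixed was not tested. Plat was above the midpoint by 1.38 ± 0.34 (log2 ± SE, limma adjusted p = 0.028). As descriptions, Serpine2 stood above it by 1.68 ± 0.26 and Plau by 1.53 ± 0.292. Plaur did not pass the test (1.14 ± 0.395, adjusted p = 0.147). Serpinf2 lay at the midpoint within its error, at 0.05 with a 95% interval from -0.55 to 0.66 (adjusted p = 0.988). The call for Plat was lost when only the 9 DDC libraries were in the fit (adjusted p = 0.137) and under quantile normalization (0.103). With a pseudocount of 5 it was lost because 0.90 fell short of 1 in size (adjusted p = 0.0352). At that setting Plau came to 0.69 and Serpine2 to 0.92. The call for Plat was also lost without DDC biliary library 1 or 2 or reprogrammed library 1 or 3 (adjusted p = 0.0573, 0.0531, 0.0826 and 0.189).

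Set against each DDC group alone, the receptor and the tissue activator of reprogrammed cells stood apart from hepatocytes and not from biliary cells. Compared with DDC hepatocytes, where 19.5% of all genes were called, 13.7% higher and 5.77% lower, Plat was higher by 3.19 ± 0.393 (log2 ± SE, limma adjusted p = 3.42e-05) and Plaur by 2.86 ± 0.456 (adjusted p = 0.000289). Serpinf2 was lower, at -1.36 ± 0.322 (adjusted p = 0.00417), a call that was lost in TPM as deposited (-0.56, adjusted p = 0.0522) and under quantile normalization (-0.64, adjusted p = 0.0629). Compared with DDC biliary cells, where 3.51% of all genes were called, 2.78% higher and 0.734% lower, Plat differed by -0.44 (95% interval -1.29 to 0.42, adjusted p = 0.481) and Plaur by -0.58 (95% interval -1.57 to 0.41, adjusted p = 0.416), so differences of these sizes were not resolved with 3 libraries a group. Serpinf2 was higher by 1.46 ± 0.322 (adjusted p = 0.014). That call was lost in a fit of these 6 libraries alone (adjusted p = 0.109), without DDC biliary library 3 (0.0717) and without reprogrammed library 2 (0.0644). For Plau and Serpine2, whose DDC levels chose the group, the values are a description. Plau was 4.09 ± 0.338 above DDC hepatocytes and -1.03 ± 0.338 from DDC biliary cells (log2 ± SE), and Serpine2 was 4.04 ± 0.301 above and -0.69 ± 0.301 from them. The mean of reprogrammed cells came to 46.9% of that of DDC biliary cells for Plau, 61.6% for Serpine2, 65.4% for Plaur, 71.5% for Plat and 278% for Serpinf2.

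Because TPM is per length, the activators can be set against the inhibitors within a library. Untreated hepatocytes held 7.95 to 19.2 of Serpine2 beside a sum of Plau and Plat of 0 to 0.154. In untreated biliary cells this activator sum was also below Serpine2, at a ratio of 0.0953, 0.121 and 0.377. Under DDC the activator sum was above Serpine2 in each library of the 3 populations, of which reprogrammed cells have no untreated group. The ratio of activators to Serpine2 was 18.9, 1.78 and 2.44 in DDC hepatocytes, where both terms were under 5, and 1.29, 2.30 and 2.51 in DDC biliary cells. In reprogrammed cells it was 1.27, 2.30 and 2.49, so libraries of the same number in these 2 groups had almost the same ratio, with library 1 the lowest in both. Serpinf2 remained the most abundant of the 5 transcripts in each group. It was 6.55e+03 to 1.09e+04 times the activator sum in the untreated hepatocyte libraries where that sum was above 0, 153 to 1099 times in DDC hepatocytes, 5.99 to 10.7 times in reprogrammed cells and 0.864 to 2.36 times in DDC biliary cells. In DDC biliary library 3 the activator sum of 115 exceeded the 99.1 of Serpinf2.

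**Figure D3:**
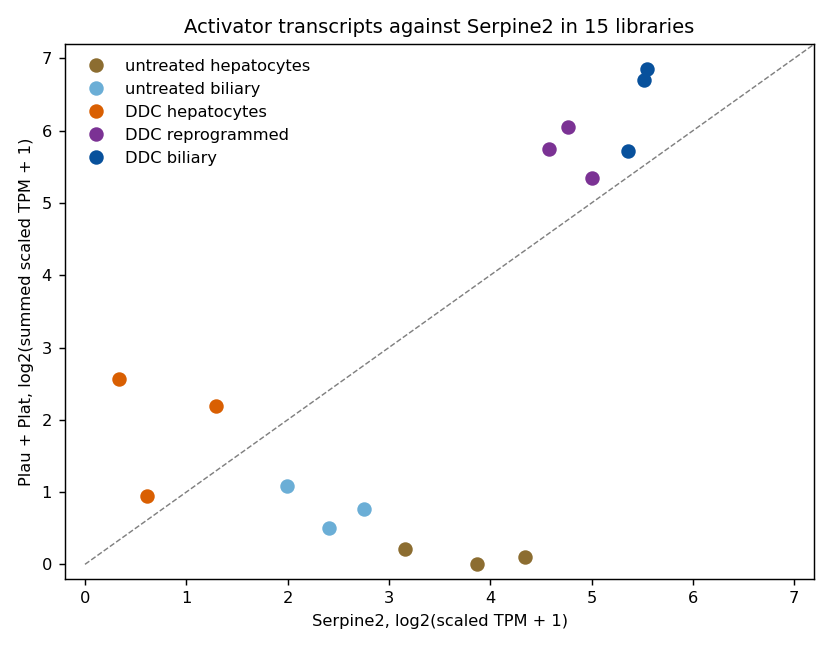
Summed level of Plau and Plat (vertical axis) against Serpine2 (horizontal axis), both as log2(scaled TPM + 1), with 1 point per library, 3 per group, and a dashed line of equal values. Untreated libraries lie below the line and DDC libraries above it, with reprogrammed and DDC biliary libraries at the upper right.

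The genes around these 5 were described from a list of 45 plasminogen system genes in 5 roles, of which 45 were in the table and 35 passed the filter. Averaged over the treatments, 10 of the 35 were higher and 16 lower in biliary cells than in hepatocytes, with a median log2 difference of -0.66 against 0.15 over all genes. Of all genes tested, 21.2% were called higher and 14.7% lower. The precursor gene Plg stood at 2391 ± 29.6 (mean ± SD, n = 3 libraries, as for the means below) in untreated hepatocytes and 435 ± 85.3 in untreated biliary cells (log2 difference of the average -2.63, limma adjusted p = 3.61e-07). Circulating inhibitors were lower as well, 4 of 6 tested and 0 higher. Among them were Serpinc1, the antithrombin gene (-2.61, adjusted p = 1.42e-07), and Cpb2, whose product slows fibrinolysis (-2.52, adjusted p = 1.61e-07). Of the surface receptors of plasminogen, Anxa2, the annexin A2 gene, was higher by 4.01 (adjusted p = 1.07e-07) and Plgrkt by 1.91 (adjusted p = 3.54e-08). The role of plasminogen and its receptors was divided, with 2 of 6 tested genes higher and 2 lower, and a median of -0.51. Hrg was lower beside Plg (-2.61, limma adjusted p = 6.38e-05). S100a10 and Eno1 were not called, and their means were lower in biliary cells than in hepatocytes under both treatments. The membrane protease gene St14, coding for matriptase, was higher by 5.24 (adjusted p = 1.23e-08) and the integrin gene Itgb6 by 3.92 (adjusted p = 1.95e-11). In this comparison Serping1, the C1 inhibitor gene, at -1.76 (adjusted p = 2.05e-05), lost its call in TPM as deposited (-0.58) and under quantile normalization (-0.74).

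Under DDC, 6 of the 35 rose and 1 fell in hepatocytes, with a median of 0.22 against 0.01 over all genes, of which 11% were called, 6.59% higher and 4.42% lower. In biliary cells 4 rose and 2 fell, with a median of -0.11 against -0.02 over all genes, of which 10.4% were called, 5.68% higher and 4.74% lower. Serping1 fell in both cell types, from 970.1 ± 98.2 to 317 ± 127 in hepatocytes (-1.68, adjusted p = 0.00304) and from 237 ± 32.1 to 117 ± 64.7 in biliary cells (-1.14, adjusted p = 0.0274). The Serping1 call in biliary cells was lost in TPM as deposited (limma adjusted p = 0.0601), when only those 6 libraries were in the fit (0.0535), and without any 1 of untreated biliary libraries 1, 2 and 3 (0.0958, 0.0557 and 0.0579) or DDC biliary libraries 2 and 3 (0.102 and 0.12).

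For the difference between the responses, 8.4% of all genes were called, 3.46% with a higher and 4.94% with a lower biliary response, and of the 35 genes 3 and 5 were. Anxa2 rose in hepatocytes from 1.28 ± 0.924 to 233 ± 147 (log2 difference 6.53, limma adjusted p = 5.89e-07), with DDC libraries at 380, 86.1 and 234, and was 238 ± 34.8 and 466 ± 48.6 in untreated and DDC biliary cells, where it was not called. Mmp14, which codes for a membrane-bound matrix protease, rose in hepatocytes from 24.8 ± 1.43 to 80.7 ± 4.52 (1.66, adjusted p = 1.96e-06). In biliary cells the integrin genes Itgb6, from 6.45 ± 0.935 to 35.5 ± 9.29 (2.27, adjusted p = 1.69e-06), and Itgav, from 33.2 ± 3.59 to 149.8 ± 22.4 (2.13, adjusted p = 2.95e-05), rose with Thbs1, the thrombospondin gene, from 12.3 ± 4.48 to 88.7 ± 23.9 (2.77, adjusted p = 4.77e-06). Plg passed the test in neither cell type under DDC, at 1761 ± 256 in hepatocytes and 269 ± 117 in biliary cells.

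Reprogrammed cells had 6 of the 35 higher and 14 lower than DDC hepatocytes, where 13.7% of all genes were called higher and 5.77% lower. The median was -0.47 against 0.06 over all genes. In TPM as deposited the split became 11 higher and 0 lower (limma, and 0 lower at an unadjusted p under 0.05 too). Thbs1 was higher by 4.59 (limma adjusted p = 1.28e-08), Itgb6 by 3.74 (adjusted p = 4.99e-09) and St14 by 3.67 (adjusted p = 3.94e-05), all of which stayed higher without scaling. Plg was 661 ± 319 and lower by the test (-1.51, adjusted p = 0.0027), but not called in TPM as deposited (-0.71) or under quantile normalization (-0.89). Compared with DDC biliary cells, where 2.78% of all genes were called higher and 0.734% lower, 11 of the 35 were higher and 2 lower. The median was 0.53 against -0.06 over all genes, and the counts became 5 and 4 in TPM as deposited. With only those 6 libraries in the fit limma called 0 in either direction, where 11 and 2 had an unadjusted p under 0.05, and without DDC biliary library 3 or reprogrammed library 2 it called 2 higher and 1 lower.

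**Figure D4:**
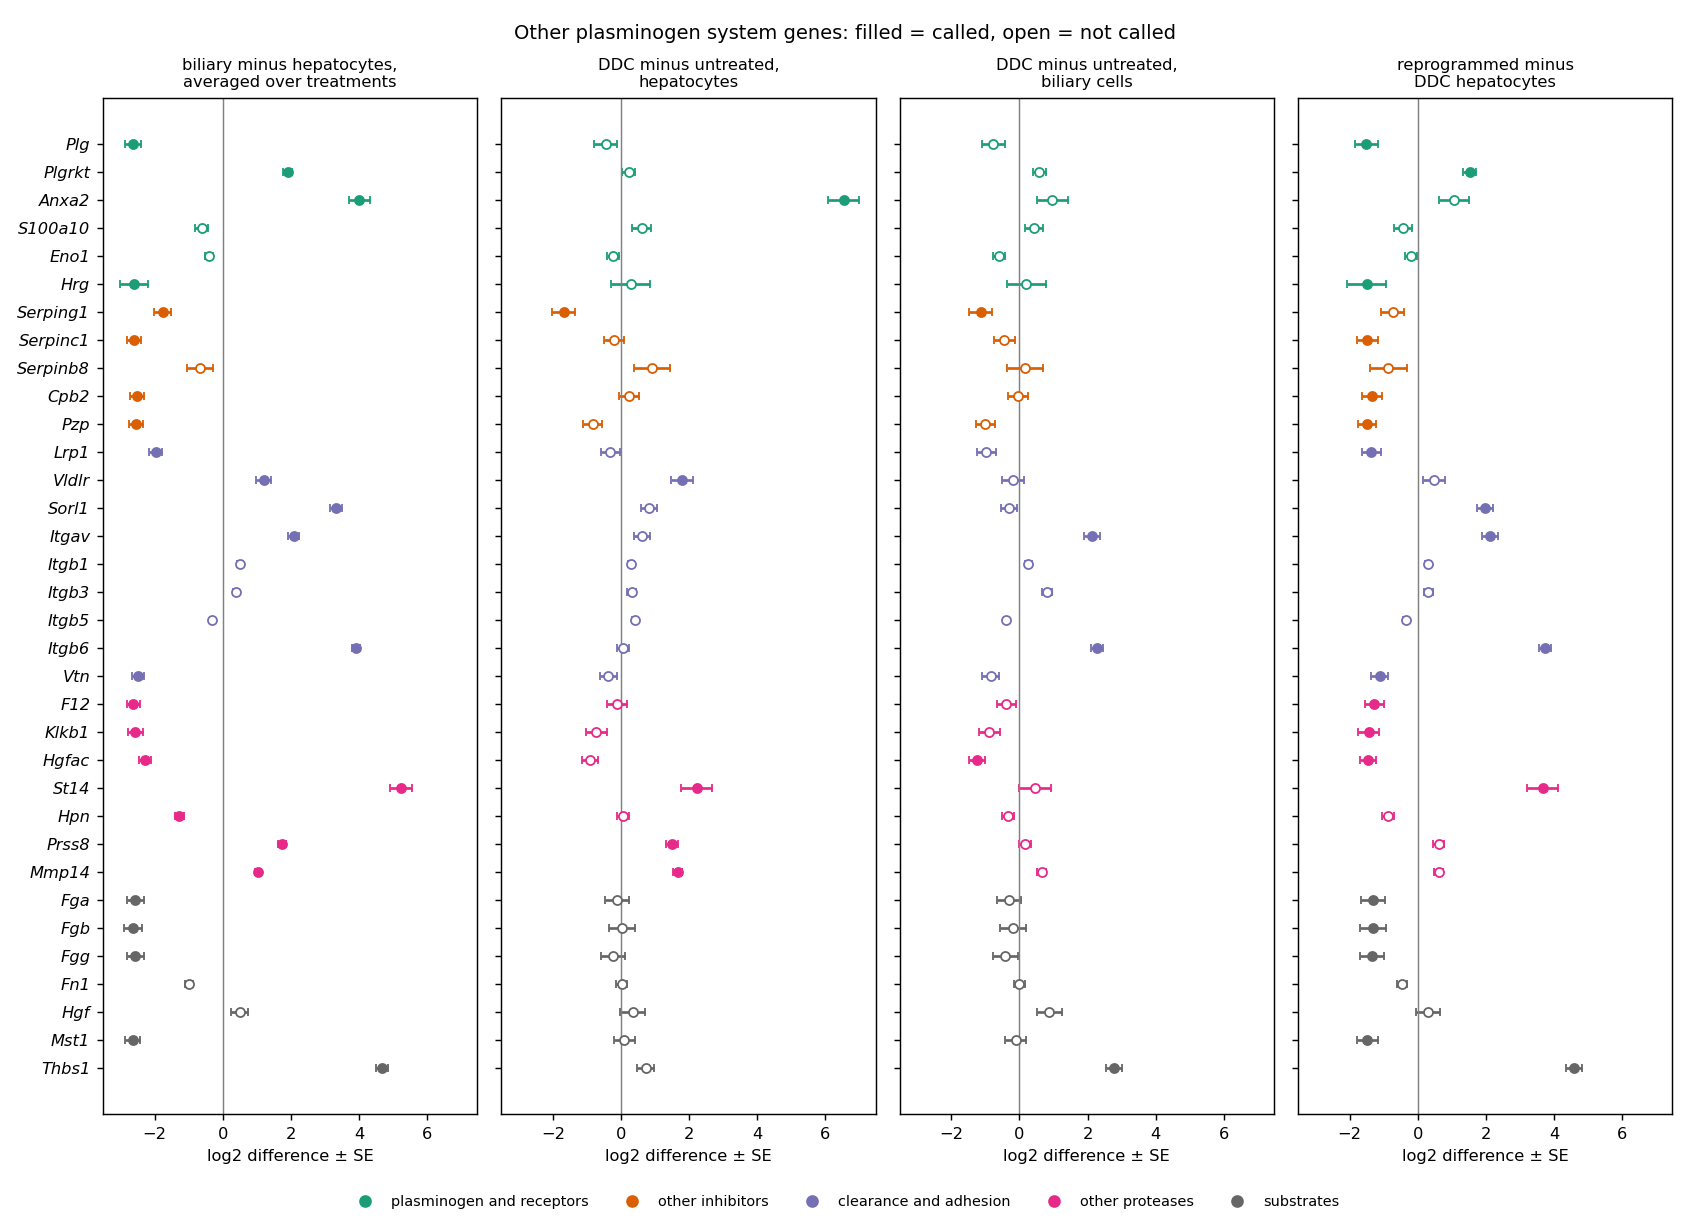
Log2 differences with standard errors (horizontal axis, the same range in each panel) of tested genes of the list that are reported here, coloured by role, in 4 comparisons of 3 libraries a group (6 against 6 in the first). Filled points were called. Plasma protein genes such as Plg, Serpinc1 and Fgb lie below 0 in the first and last panels, and Anxa2 lies farthest above 0 in the DDC panel of hepatocytes.

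The genes with the pattern most like each member were found by Pearson's r over the 15 libraries, which share their scale factors and group structure, among genes of at least 10 scaled TPM in their highest group. For Plau they included Slc4a11 (r = 0.991), Akap12 (0.989) and Adam8 (0.989). Slc4a11 had group means of 0 and 0.226 in untreated hepatocytes and biliary cells and of 0.277, 11.1 and 17.3 in DDC hepatocytes, reprogrammed and biliary cells. Plat was closest to Neurl1a (0.988), 5730559C18Rik (0.986), Cdh17 (0.986), Phlda3 (0.985) and Cd44 (0.983). For Plaur the nearest were Tubb2b (0.987), Lif (0.983), Sfn (0.981), Basp1 (0.981) and Fosl2 (0.980). Fosl2, a subunit of the AP-1 factor, stood at 1.79 and 7.43 untreated and at 5.12, 12.9 and 19.3 under DDC, in the same order of groups. Serpine2 had looser neighbours, led by Lama3, a laminin chain gene (0.885), Clic4 (0.873), Serpinb1a (0.842), Gm10845 (0.841) and Taf2 (0.840). Like Serpine2, Lama3 was lowest in DDC hepatocytes (0.191) and highest in DDC biliary cells (12.3), with 4.09 and 4.15 in the untreated groups. In reprogrammed cells Lama3 stood at 5.33, close to its untreated levels, whereas Serpine2 stood at 26.8 there against 13.6 and 4.34 in untreated hepatocytes and biliary cells. The nearest genes to Serpinf2 were the plasma protein genes Ahsg (0.996), Apoa1 (0.996) and Fgb (0.995) beside Stard10 and Slc6a13 (both 0.996). Among the 5 genes r was 0.95 for Plau with Plat, 0.905 for Plat with Plaur and 0.878 for Plau with Plaur, 0.782 for Plau with Serpine2, and -0.504 to -0.703 for Serpinf2 with Plau and Plaur.

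Markers of other liver cells that can express these genes were read in the same libraries. Summed levels were 16.2 to 88.7 in DDC biliary, 19.7 to 66.3 in reprogrammed and 12.9 to 13.7 in DDC hepatocyte libraries for 9 stellate cell and fibroblast markers, against 20.3 to 31.3 in untreated biliary cells. For 8 endothelial markers they were 10.3 to 25.5, 7.30 to 14.5 and 5.12 to 9.29 in the DDC groups in that order, and 7.49 to 13.7 in untreated biliary cells. Among the stellate cell and fibroblast markers, Reln had a lower mean in DDC than in untreated biliary cells (2.16 against 13.4). The other markers of that list had higher means under DDC, from Lrat (0.609 against 0.581) to Col1a1 (3.78 against 0.314) and Col3a1 (7.97 against 1.67). The sum over 7 macrophage markers was 26.8 to 65.8 in DDC biliary and 57.0 to 83.3 in untreated biliary cells. Csf1r was its largest part, with means of 23.4 and 42.6 in these groups. Cd68 (8.78 against 3.78) and Marco (2.70 against 1.93) had higher means under DDC, whereas Adgre1, Clec4f, Vsig4 and Cd5l had lower ones. The part of macrophages in the levels of Plau and Plat was not tested. For 5 neutrophil markers the sum was 22.0 to 29.5 in DDC biliary, 13.5 to 32.6 in reprogrammed, 9.86 to 15.2 in DDC hepatocyte and 0.645 to 1.70 in untreated biliary libraries, and in the last group Retnlg was listed at 0 throughout. Ptprc, the pan-leukocyte gene, was at most 0.996 in any library. A sum over 4 mesothelial markers was 103 to 152 in DDC biliary, 47.6 to 65.6 in reprogrammed and 56.1 to 63.4 in untreated biliary libraries. Of these markers Msln alone had a higher mean in DDC than in untreated biliary cells (117 against 5.73), whereas Gpm6a (16.0 against 53.7), Upk3b (0.461 against 1.13) and Wt1 (0.154 against 0.211) had lower means. The neutrophil sum was higher in DDC than in untreated libraries, as were Plau and Plat in biliary cells, and its part in their levels was not tested. In DDC hepatocytes, library 1 had the highest Plat and Plaur together with the lowest hepatocyte sum (71040 against 133900 and 144900), whose part in the 2 levels was not tested. Its macrophage sum was the highest of the 3 (37.0 against 13.6 and 16.3) through Cd68 alone, at 31.5 against 5.72 and 6.43. The macrophage markers Clec4f, Vsig4, Cd5l and Marco were lowest in that library, and Adgre1 and Csf1r lay between the other libraries. Immediate early genes, which respond to cell dissociation, were highest in untreated biliary cells (3288 to 5930 summed over 10 genes). They were 1588 to 2023 in DDC biliary, 1329 to 1621 in reprogrammed and 586.8 to 1010 in DDC hepatocyte libraries. Their part in the levels of Plau and Plat was not tested.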

How the data were processed

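Total RNA of directly sorted mouse liver cells was sequenced. The deposited values are gene TPM, made by the authors with Salmon, per the submitters' processing notes, which also name the build mm10; the Salmon version and annotation are not given in the sources used here. Library titles gave the group and the number. Gene positions came from GENCODE M21 on GRCm38, the assembly of mm10. The genes, lists and tests were chosen with earlier results of these data known.

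Genes with a TPM of at least 1 in at least 3 libraries were kept (13905 of 24493). Each library was divided by the median, over 11924 genes above 0 in every library, of its ratio to the geometric mean (factors 0.558 to 1.64). Values of log2(scaled TPM + 1) were fitted with limma 3.58.1 (R 4.3.3). All 5 groups entered 1 fit, which allowed for a trend of variance with level and left 10 residual degrees of freedom, with Benjamini-Hochberg adjustment over all genes. TPM are not counts, so no count test was used. Named list genes were, per comparison and role, up to 4 called genes of the largest difference. Genes alike in pattern were the 5 of highest Pearson r. Some genes that these rules name are not reported here, though the counts include them. Figures used matplotlib 3.10.9 in Python 3.11.15.

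Tested on simulated data of 13905 genes, the fit recovered 85 to 99 of 100 genes given a log2 difference of 2 per comparison, the lowest for the difference between the DDC responses, with 0 to 7 false calls. The changed genes were drawn only from genes of higher mean level. The recovery therefore does not cover genes of low mean level, such as Plau and Plat. Libraries of the same number deviated together from their group means across genes, at r from 0.15 to 0.236 between the untreated groups, 0.136 to 0.449 for reprogrammed cells with DDC hepatocytes and 0.208 to 0.456 for reprogrammed with DDC biliary cells, and from 0.0436 to 0.319 between DDC hepatocytes and DDC biliary cells. This likeness comes from the data and not from the labels, and libraries of different numbers were not compared. The main fit and its p-values did not use the number, which entered only as a block in an alternative. Alternatives were TPM as deposited, quantile normalization, other pseudocounts and filters, fewer groups in the fit, no trend, the number as a block, and leaving out each library in turn.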

Additional observations from a re-analysis of the deposited data

Results flagged for a closer look

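The DDC responses of 8 of the 35 tested plasminogen system genes differed between biliary cells and hepatocytes by limma's interaction term, given as the biliary minus the hepatocyte response (log2 ± SE). Larger responses in biliary cells were found for Itgb6, 2.21 ± 0.247 (adjusted p = 9.46e-05), Thbs1, 2.04 ± 0.341 (adjusted p = 0.00166), and Itgav, 1.53 ± 0.326 (adjusted p = 0.00772). Smaller ones were found for the annexin gene Anxa2, -5.56 ± 0.63 (adjusted p = 0.000103), for Vldlr, a receptor that clears activator and inhibitor complexes, -2.0 ± 0.46 (adjusted p = 0.0119), for the membrane protease genes Prss8, -1.33 ± 0.238 (adjusted p = 0.00263), and Mmp14, -1.01 ± 0.186 (adjusted p = 0.00301), and for Sorl1, -1.14 ± 0.333 (adjusted p = 0.0413). With a pseudocount of 0.1, Thbs1 came to 0.23 with no call, and Itgav lost its call in TPM as deposited (adjusted p = 0.0536). Under quantile normalization Prss8 fell short of 1 in size (-0.90) and Mmp14 came to -0.52 (adjusted p = 0.18). With a pseudocount of 5, Prss8 (-0.97), Mmp14 (-0.90) and Sorl1 (-0.49) fell short of 1 in size. Sorl1, already near the threshold, lost its call in TPM as deposited (-0.91, limma adjusted p = 0.128) and under quantile normalization (-0.88, 0.0804). Its call was also lost without the filter (adjusted p = 0.0601) and when only the 4 groups compared were in the fit (0.0615). It was also lost without any 1 of the untreated or DDC biliary libraries, of the untreated hepatocyte libraries, or without DDC hepatocyte library 1 (Sorl1 at -0.79). Mmp14, close to the size limit, came to -0.90 without DDC biliary library 1, -0.95 without untreated biliary library 3, -0.97 without untreated hepatocyte library 3 and -0.98 without DDC hepatocyte library 3, each below 1 in size.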

How the results depend on the processing

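For biliary cells against hepatocytes averaged over the treatments, the calls of Plaur, Plat and Serpinf2 held under the 21 alternatives run, with Plaur from 1.82 to 4.33, Plat from 1.36 to 3.28 and Serpinf2 from -2.81 to -1.47. Against the midpoint of the other DDC groups, reprogrammed cells lost the call of Plat under quantile normalization (1.07) and with a pseudocount of 5 (0.90). It was also lost with only the compared groups in the fit (1.38) and with a pseudocount of 0.1 (1.64). For Plau and Serpine2 this comparison is a description with no test. Plau came to 1.14 under quantile normalization, 0.69 with a pseudocount of 5 and 1.53 with only the compared groups. Serpine2 came to 0.92 with a pseudocount of 5. Leaving out each library in turn gave 1.13 to 1.58 for Plat there. Serpinf2, not called, turned to -0.06, -0.04 and -0.24 without DDC biliary library 3, DDC hepatocyte library 1 and reprogrammed library 2, within a range of -0.24 to 0.39. Against DDC hepatocytes Serpinf2 lost its call in TPM as deposited (-0.56) and under quantile normalization (-0.64). Against DDC biliary cells it lost it with only those groups (1.46), and ranged from 1.17 to 1.80 with a library left out.

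Of the list genes, those called in reprogrammed cells against DDC hepatocytes were 11 higher and 0 lower in TPM as deposited and 5 lower under quantile normalization. Against DDC biliary cells they were 5 higher and 4 lower in TPM as deposited, 7 higher under quantile normalization, 1 lower with a pseudocount of 0.1, and 0 and 0 by limma with only those groups (11 and 2 at an unadjusted p under 0.05). With a library left out they ran from 2 to 14 higher and from 1 to 2 lower. The count lower in DDC than in untreated biliary cells was 1 in TPM as deposited and 1 with only those groups, and 0 to 6 with a library left out: 0 without DDC biliary library 3, 6 without DDC biliary library 2 and 1 without untreated biliary library 1. In hepatocytes it was 1 to 2, with 2 without untreated library 2. For the difference between the responses the count of smaller biliary responses was 2 under quantile normalization and 2 with a pseudocount of 5, and 3 to 5 with a library left out, with 3 without untreated biliary library 3, untreated hepatocyte library 3 or DDC biliary library 1. Fewer samples bear on the fits with libraries or groups left out; for the other settings the cause was not tested. The replicate number as a block within treatment changed 0 of the calls of Plaur, Plat, Serpinf2 and the named list genes and moved 0 counts by over 1.5 times. The list counts rose to 7 higher against DDC hepatocytes, 12 higher against DDC biliary cells and 6 lower for the difference between the responses. Plau against the midpoint stood at 1.53 under the block, as without it. The block was not run for DDC against untreated cells, since the numbers lie within a treatment. Low levels limit Plau, Plat and Plaur in untreated cells: with pseudocounts of 0.1 and 5 the DDC response of biliary Plau ran from 6.96 to 3.22.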
